A study of Mus musculus with 10 samples.

Results

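The 10 genes described here encode regulators of pluripotency, the state in which a cell of the early embryo can still form every tissue: Nanog, Pou5f1 (Oct4), Zfp42 (Rex1), Esrrb, Dppa3 (Stella), Prdm14, Klf2, Klf4, Lin28a and Utf1. They were chosen by name, and all 10 were found among the 21887 protein-coding genes of the annotation on chromosomes 1 to 19, X and Y. Each was taken with its gene body and 5 kb on either side, and every peak that touched this window in any of 8 peak lists was counted.

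The cells were neural stem and progenitor cells (NSPCs) of the embryonic mouse forebrain at E13.5, cultured in 20 ng/ml EGF and 20 ng/ml FGF, growth factors that keep them dividing. They received 10 mM crotonate for 24 h, or water as control. Crotonate is a short-chain fatty acid from which cells can make crotonyl-CoA, the donor for histone crotonylation. Native chromatin immunoprecipitation and sequencing was made for H3K4me3, H3K9cr, H3K27ac and H3K27me3, with 1 library for each mark in each treatment, so no value below has a replicate error and no difference between treatments was tested. The labels give no strain and no number of embryos, and per the labels the vendor of the H3K4me3 and of the H3K27me3 antibody was not the same in crotonate and in control, although the catalogue numbers were.

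In embryonic stem cells, Pou5f1, Nanog, Esrrb, Klf2, Klf4 and Prdm14 act in a shared network of transcription factors that keeps pluripotency genes on and differentiation genes off. The network is shut down as the embryo forms its germ layers. In somatic cells many of these promoters are silenced by DNA methylation, by H3K27me3, which Polycomb complexes write, or by both. H3K4me3 marks promoters that are active or held ready, and H3K27ac and H3K9cr are acylations of active promoters and enhancers. The joint presence of H3K4me3 and H3K27me3 at a promoter is called bivalent. The lists come from whole cultures and do not show whether 2 marks lay in the same cells, nor can fewer cells with a mark and less of it per cell be told apart.

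The cell type was checked on markers. All 15 neural stem and progenitor markers had H3K4me3, H3K9cr and H3K27ac in both treatments. Over all protein-coding genes the share with H3K4me3 was 68.1% in crotonate and 66.8% in control. It was 70.5% in crotonate and 69.3% in control for H3K9cr, and 68.5% in crotonate and 67.7% in control for H3K27ac. Of 7 microglia and blood markers, H3K4me3 touched 3 in crotonate and 2 in control, H3K9cr 4 in crotonate and 2 in control, and H3K27ac 3 in each. Of 5 endothelium and pericyte markers, H3K4me3 touched 2 in each treatment. H3K9cr touched 3 of these 5 in crotonate and 4 in control, and H3K27ac 4 in crotonate and 2 in control. These marks did not set the cells apart from the oligodendrocyte lineage, since all 6 of its markers had the 3 active marks in both treatments. All 9 neuron markers had H3K4me3 in both treatments and 8 had H3K9cr in each, while H3K27ac touched 5 in crotonate and 6 in control. H3K27me3 touched 7 neuron markers in crotonate, beside 34.7% of all genes, and 8 in control, beside 33.8%. It overlapped H3K4me3 at 6 of them in crotonate, beside 17.5% of all genes, and at 7 in control, beside 20.1%. Of 4 astrocyte markers, H3K4me3 touched 2, H3K9cr 3 and H3K27ac 4 in each treatment. H3K27me3 touched 7 of the 15 neural stem and progenitor markers in crotonate and 9 in control. It touched 3 of 6 oligodendrocyte lineage markers in crotonate and 4 in control. Of the 4 astrocyte markers it touched 1 in crotonate and 2 in control. It touched 2 of 7 microglia and blood markers in crotonate and 1 in control, and 3 of 5 endothelium and pericyte markers in each. Read totals are unknown. A stand-in, the lowest background pileup implied by any peak of a list, lay between 2.67 and 3.74 in the 8 lists. The crotonate lists were the longer ones for all 4 marks, with 34707 H3K27me3 peaks in crotonate and 26031 in control.

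The promoters of 8 of the 10 genes are in the RefSeq promoter table (GRCm38.p6), and 5 are shown because they stand for the chromatin states found. Nanog (chr6:122707239-122707488, plus strand) carried H3K27me3 in crotonate only. Pou5f1 (chr17:35505782-35506031, plus strand) carried H3K27me3 in both treatments. Zfp42 (chr8:43307010-43307259, minus strand) carried no mark. The second start of Esrrb (chr12:86421394-86421643, plus strand) and the start of Klf2 (chr8:72318812-72319061, plus strand) carried all 4 marks in both treatments. Each line gives the 250 bases before the start, 5′ to 3′ on the gene's strand, with every CpG in capitals.
Nanog: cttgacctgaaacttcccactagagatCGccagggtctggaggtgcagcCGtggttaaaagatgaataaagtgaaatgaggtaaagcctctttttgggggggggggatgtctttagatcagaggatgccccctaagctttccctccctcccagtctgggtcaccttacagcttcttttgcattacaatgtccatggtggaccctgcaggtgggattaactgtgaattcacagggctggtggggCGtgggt
Pou5f1: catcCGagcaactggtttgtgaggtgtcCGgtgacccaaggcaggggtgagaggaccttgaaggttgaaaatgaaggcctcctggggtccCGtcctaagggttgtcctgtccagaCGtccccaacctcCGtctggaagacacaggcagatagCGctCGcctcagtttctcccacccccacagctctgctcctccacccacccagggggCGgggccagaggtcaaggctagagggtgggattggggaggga
Zfp42: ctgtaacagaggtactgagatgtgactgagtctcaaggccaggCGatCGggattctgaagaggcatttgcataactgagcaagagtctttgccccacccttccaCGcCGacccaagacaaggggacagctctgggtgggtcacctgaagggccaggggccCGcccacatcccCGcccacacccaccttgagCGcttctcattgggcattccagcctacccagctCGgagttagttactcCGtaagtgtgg
Esrrb second start: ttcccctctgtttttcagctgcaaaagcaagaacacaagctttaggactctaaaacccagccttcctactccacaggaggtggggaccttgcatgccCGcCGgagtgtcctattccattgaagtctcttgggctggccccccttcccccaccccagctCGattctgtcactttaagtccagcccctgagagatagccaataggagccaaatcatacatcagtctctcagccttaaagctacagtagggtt
Klf2: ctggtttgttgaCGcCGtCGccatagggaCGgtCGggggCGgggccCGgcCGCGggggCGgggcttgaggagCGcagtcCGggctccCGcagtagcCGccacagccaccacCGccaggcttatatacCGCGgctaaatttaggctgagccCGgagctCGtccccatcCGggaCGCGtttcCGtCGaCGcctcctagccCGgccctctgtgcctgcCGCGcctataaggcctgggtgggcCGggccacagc

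These 250 bases hold 3 CpGs at Nanog, 8 at Pou5f1, 9 at Zfp42, 3 at the second Esrrb start and 29 at Klf2. Over the 300 bases from 250 before to 50 after the start, the ratio of observed to expected CpGs was highest at Klf4 (0.974) and Klf2 (0.889), then 0.615 at Utf1, 0.441 at Zfp42, 0.374 at the first Pou5f1 start, 0.351 at Lin28a and 0.192 at the first Nanog start. The median of the 32851 promoters in the table was 0.384. Klf2 and Klf4, the CpG-rich ones, had H3K4me3, H3K9cr and H3K27ac on these bases in both treatments. CpG content did not sort the others by their marks: the second Esrrb start, at 0.318, had the same 3 marks and H3K27me3, while its first start, at 0.266, had none. H3K27me3 lay on these bases in crotonate only at both Nanog starts and at the second Pou5f1 start, and in control only at Klf4. The GC box GGGCGG, searched on both strands, was found 4 times at Klf4 and at Utf1, 2 times at Klf2 and Zfp42, and 1 time each at the first Pou5f1 start and at Lin28a. It was not found at Nanog or Esrrb, and 35.7% of all promoters in the table hold it. No start of these 8 genes had the letters TATAAA on either strand in this window, and 13.6% of all promoters do.

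**Figure D1:**
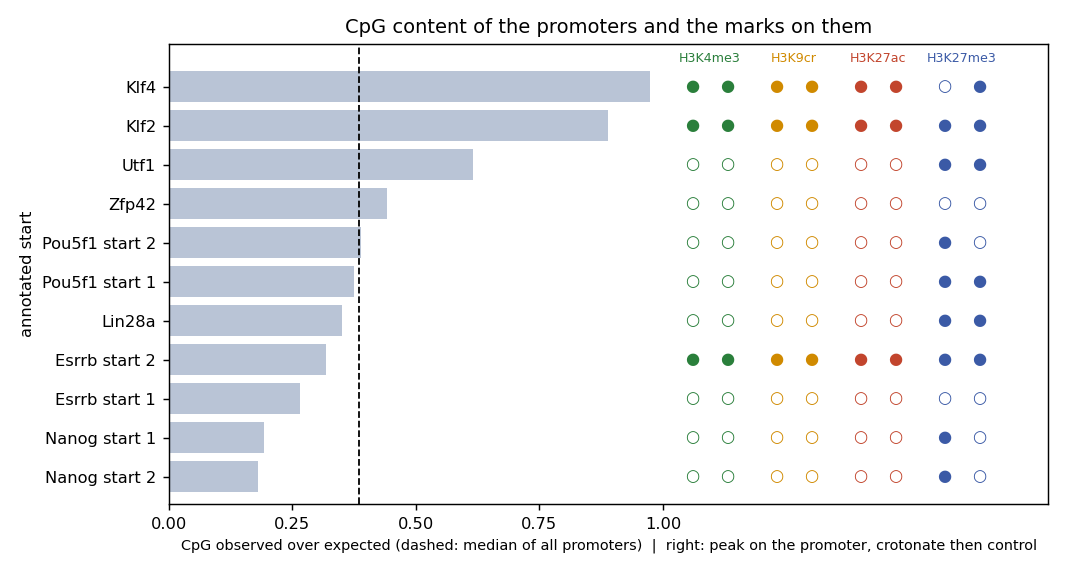
Bars give the ratio of observed to expected CpGs in the 300 bases around each of 11 annotated starts of 8 genes, and the dashed line the median of all promoters, 0.384. Filled circles mark a peak on those bases, crotonate left of control for each mark. Klf2, Klf4 and the second Esrrb start carry the 3 active marks in both treatments. Nanog and the second Pou5f1 start carry H3K27me3 in crotonate only, and Klf4 carries it in control only.

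H3K27me3 was the most common mark at the pluripotency genes. It touched 9 of the 10 windows in crotonate and 8 of 10 in control, against 34.7% of all protein-coding genes in crotonate and 33.8% in control. Its peaks covered 45.1 kb of the 10 windows in crotonate and 39.0 kb in control. H3K4me3 touched 7 windows in crotonate, where 68.1% of all genes had it, and 6 in control, where 66.8% did. H3K9cr touched 8 windows in crotonate (70.5% of all genes) and 7 in control (69.3%), and H3K27ac 7 in crotonate (68.5%) and 6 in control (67.7%). The shares of the active marks were thus close to those over all genes, whereas the H3K27me3 share was well above it.

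Several active peaks belong to neighbouring genes, so the starts were also looked at alone. Within 1 kb of the annotated starts of the 8 genes in the promoter table, H3K27me3 was found at 7 genes in crotonate, beside 17.3% of all genes with such a start, and at 6 in control, beside 19.4%. H3K4me3 was found at 5 of the 8 in crotonate (62.1% of all) and 3 in control (61.0%), H3K9cr at 4 in crotonate (63.1%) and 3 in control (62.0%), and H3K27ac at 3 in crotonate (58.3%) and 3 in control (58.1%). Marked at the start in crotonate only were Lin28a and Utf1 for H3K4me3 (1.29% of all genes with a start), Utf1 for H3K9cr (1.51%), Nanog for H3K27me3 (1.66%) and none of the 8 for H3K27ac (1.66%). None of the 8 was marked in control only, beside 0.177% of all such genes for H3K4me3, 0.400% for H3K9cr, 1.54% for H3K27ac and 3.71% for H3K27me3.

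For each mark, 1 window was touched in crotonate only and 0 in control only. These were Pou5f1 for H3K4me3 and for H3K27ac, Prdm14 for H3K9cr and Dppa3 for H3K27me3. Among all genes the share touched in crotonate only was 1.59% for H3K4me3, 1.83% for H3K9cr, 2.51% for H3K27ac and 4.75% for H3K27me3, and the share touched in control only was 0.256% for H3K4me3, 0.640% for H3K9cr, 1.72% for H3K27ac and 3.84% for H3K27me3. Changes inside a window that has the mark in both treatments, such as the one at Nanog, do not enter these counts.

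Single peaks were called gained when they overlapped no control peak of the same mark by 1 bp, and lost in the opposite case. Of 23 H3K27me3 peaks in the crotonate windows, 10 were gained (43.5%, exact 95% interval 23.2 to 65.5, for counting error only), beside 45.2% of the whole list. Of 16 in the control windows, 1 was lost (6.25%, 0.158 to 30.2), beside 26.4%. For H3K27ac 5 of 14 crotonate peaks were gained, beside 30.1% of the whole list, and 3 of 12 control peaks lost, beside 25.3%. For H3K9cr 3 of 13 crotonate peaks were gained, beside 15.3%, and 0 of 10 control peaks lost, beside 15.1%. For H3K4me3 2 of 9 crotonate peaks were gained, beside 6.88%, and 0 of 6 control peaks lost, beside 2.81%. The gained and lost peaks had summit pileups, the number of stacked fragments given by the authors, from 9 to 22. By q-value they stood between percentiles 0.189 and 80.6 of their own lists, the highest being the gained H3K27me3 peak at Nanog.

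**Figure D2:**
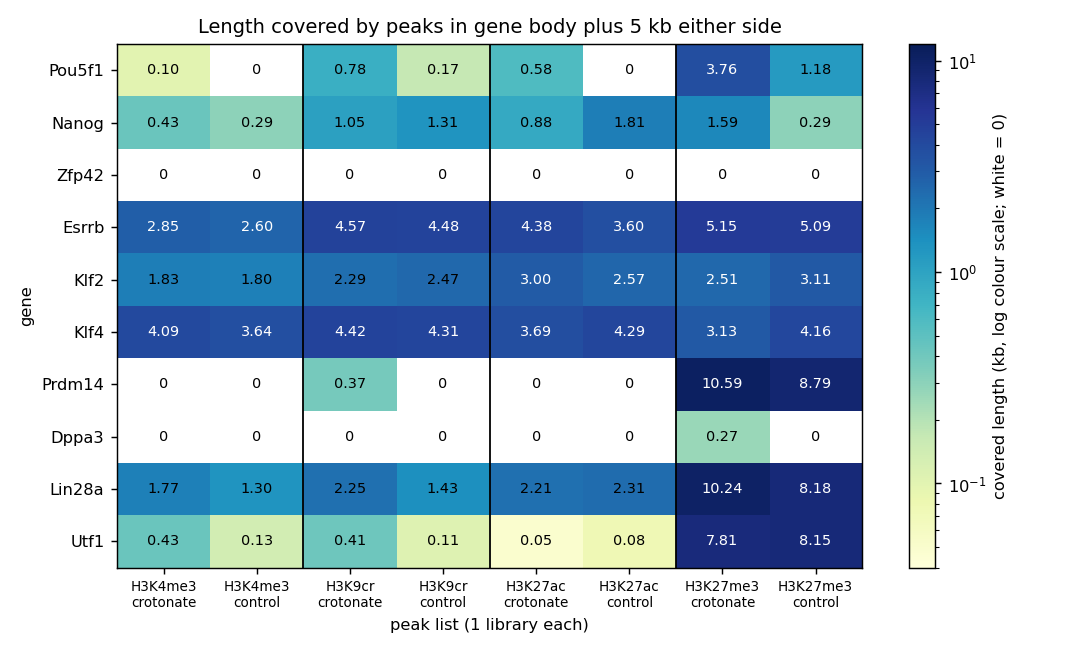
Rows are the 10 genes, columns the 8 lists, with crotonate left of control for each mark, and each cell gives the length in kb covered by peaks in the gene body plus 5 kb on either side. Zfp42 is at 0 in every list, and H3K27me3 covers 10594 bp at Prdm14 and 10241 bp at Lin28a in crotonate, against 8795 bp at Prdm14 and 8179 bp at Lin28a in control.

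Pou5f1 encodes the POU factor without which the inner cell mass does not become pluripotent. In crotonate a H3K27me3 peak of 3001 bp spanned its first start, from 447 bases before it to 2553 after it (chr17:35505585-35508585), with a summit pileup of 25. In control the same stretch held 2 shorter peaks, of 284 bp across the start and 896 bp inside the gene, with pileups of 15 and 16. Weak gained peaks lay on either side in crotonate, with pileups of 11 and 12, and the covered length was 3764 bp in crotonate and 1180 bp in control. The gene itself thus had more of its length under H3K27me3 in crotonate, and no H3K4me3, H3K9cr or H3K27ac peak on its body in either treatment. The 3001 bp peak also lies within 1 kb of the noncoding gene Gm32362. With peaks near other genes left out, which removes it, the difference in covered length, crotonate minus control, was -558 bp in place of 2584 bp.

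The peaks of active marks counted for Pou5f1 all lay at its neighbour Tcf19, whose body reaches into the window. The H3K4me3 peak there reached 101 bp into the Pou5f1 window in crotonate and ended 68 bp short of it in control, so that the single H3K4me3 gain of the set is a moved edge of a shared peak. The 2 gained H3K27ac peaks, with pileups of 9 and 20, lay in the body of Tcf19. By the rule of equal presence in the 8 lists, 9 genes including Pou5f1 had this pattern, which rests in part on the peaks at Tcf19. The least distant in peak strength were Myh7b, Ciita and Themis2. Their distances, on the log2 scale of -log10 q, were 8.17, 8.67 and 8.69, so they were not close. The genes nearest to Prdm14, named below, lay at 0.45, 0.76 and 1.32.

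Nanog encodes the homeodomain factor that lets stem cells self-renew without an added cytokine when it is overexpressed. In crotonate a H3K27me3 peak of 1587 bp lay across both of its annotated starts, from 399 bases before the first one to 1187 after it (chr6:122707090-122708676). Its summit pileup was 22, and only 44 of the 15704 gained H3K27me3 peaks had a stronger q-value. It was also among the wider gained ones, since 147 (0.936%) were at least as wide. The nearest control H3K27me3 peak lay 7836 bp away, behind the gene, with a pileup of 15 and a width of 294 bp, and it had no partner in crotonate. Nanog therefore counts as marked by H3K27me3 in both treatments, although the mark lay at the promoter in crotonate and in the 3′ flank in control.

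The active marks at Nanog stayed away from the promoter. A shared peak stood upstream in all 6 lists of active marks, with its H3K4me3 summit 4624 bases before the first start in crotonate and 4584 in control. Its H3K4me3 pileup was 24 in crotonate and 21 in control, its H3K9cr pileup 48 in crotonate and 66 in control, and its H3K27ac pileup 37 in crotonate and 27 in control. Its H3K27ac peak stood at percentile 77.2 of the crotonate list by q-value and at percentile 56.8 of the control list, lists of different length. A weaker site in the 3′ flank had H3K9cr pileups of 17 in crotonate and 19 in control, and H3K27ac in control only, with a pileup of 16. The annotation lists 2 Nanog and 7 Pou5f1 pseudogenes elsewhere in the genome, and how reads shared with such copies were placed is not given in the sources used here.

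Zfp42 encodes a zinc finger protein that is a marker of naive embryonic stem cells. No peak of any list touched its window, a state shared by 22.0% of all protein-coding genes. The nearest H3K4me3 peak lay 1551647 bp away in crotonate and 1551603 bp away in control. The nearest H3K27me3 peak lay 100242 bp away in crotonate and 1387266 bp away in control, and the nearest H3K27ac peak 572919 bp away in crotonate and 49078 bp away in control.

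**Figure D3:**
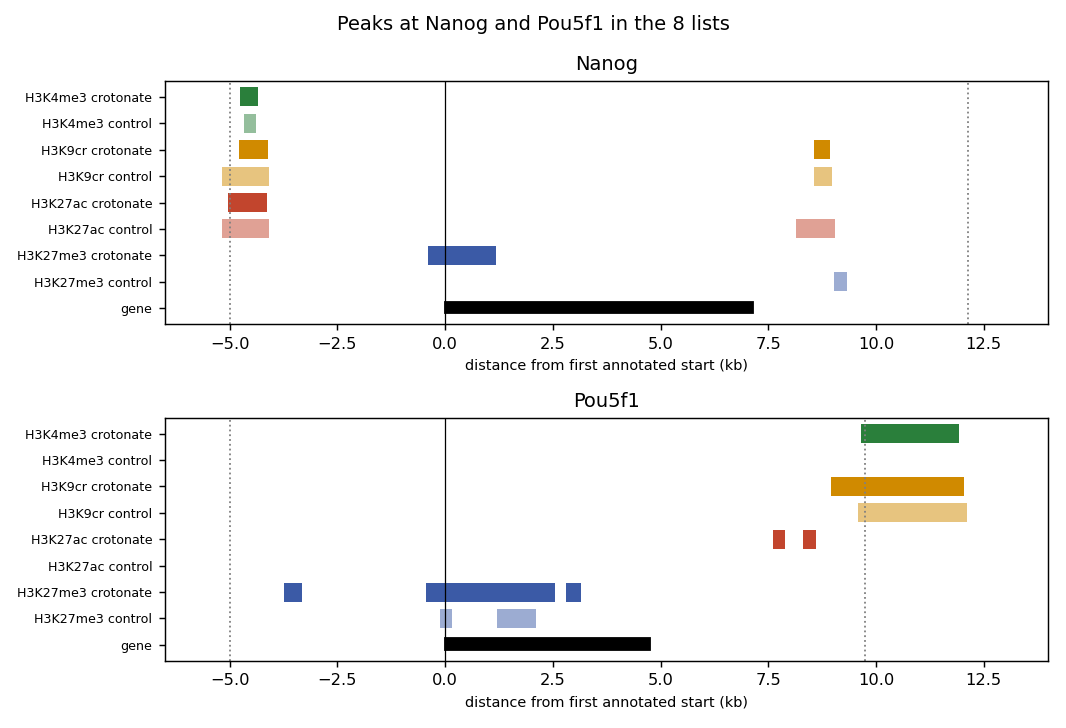
Bars are peaks of the 8 lists at Nanog (top) and Pou5f1 (bottom) by distance in kb from the first annotated start, crotonate above control for each mark, with the gene in black and the window edges dotted. The H3K27me3 peak at the Nanog start is in the crotonate list only, and the active peaks at the right of the lower panel lie at Tcf19.

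Esrrb, Klf2 and Klf4 encode an orphan nuclear receptor and a pair of Krüppel-like factors that sustain naive pluripotency together with Nanog and Pou5f1. They formed the bivalent group, since each had H3K4me3 overlapping H3K27me3 within 1 kb of an annotated start, with H3K9cr and H3K27ac there too, in both treatments. At Klf4 in crotonate the H3K27me3 peaks lay on either side of the start and not on it. Klf2 and Klf4 are also used by many somatic cells. Anywhere in the 10 windows, an overlap of H3K4me3 with H3K27me3 was found in 5 in crotonate, beside 17.5% of all genes, and 4 in control, beside 20.1%. In control the window of Utf1 counted only through an overlap at its neighbour Gm16201. Lin28a had the overlap in crotonate only, a change seen at 1.62% of all genes. No window had it in control only, beside 4.17% of all genes.

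H3K4me3 pileups at these 3 genes were similar numbers in the 2 treatments, though on no common scale. The summit pileup was 598 in crotonate and 585 in control at Esrrb, 246 in crotonate and 250 in control at Klf2, and 284 in crotonate and 332 in control at Klf4. H3K9cr pileups were 150 in crotonate and 306 in control at Esrrb, 259 in crotonate and 510 in control at Klf2, and 313 in crotonate and 426 in control at Klf4. The median H3K9cr peak of the whole list had a pileup of 41 in crotonate and 74 in control. These heights are the authors' values of separate libraries with no common scale, so they are given side by side only. Genes with a mark in both treatments were also ranked in each list by the q-value of their strongest peak, the strongest first. Of 14563 genes with H3K4me3, Esrrb ranked 6069 in crotonate and 7827 in control, Klf2 11990 and 11839, and Klf4 11613 and 11122. Of 15036 genes with H3K9cr, Esrrb ranked 10782 in crotonate and 10549 in control, Klf2 7590 and 7081, and Klf4 6013 and 8668.

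H3K27me3 had a lower pileup and a lower rank in the crotonate list at each of the 3 bivalent genes. The pileup was lower there at Prdm14, Lin28a and Utf1 too. At the bivalent genes its summit pileup was 97 in crotonate and 277 in control at Esrrb, 86 in crotonate and 214 in control at Klf2, and 83 in crotonate and 276 in control at Klf4. The median H3K27me3 peak of the whole list had 15 in crotonate and 16 in control. These medians lie far below the pileups at the 3 genes and give no scale for strong peaks. Genes with H3K27me3 in both treatments were ranked in each list by the q-value of their strongest peak, from the strongest down. Of these 6553 genes, Esrrb ranked 1484 in crotonate and 955 in control, Klf2 1649 in crotonate and 1174 in control, and Klf4 1686 in crotonate and 1000 in control.

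The main H3K27me3 peak was also narrower in crotonate at the 3 genes and reached less far before the start. At Klf2 it began 24 bases before the start in crotonate and 460 bases before it in control. At the second Esrrb start it began 36 bases before it in crotonate and 829 bases before it in control. At Klf4 it began 52 bases after the start in crotonate and 18 bases before it in control, with a second, upstream peak of 664 bp in crotonate and 1351 bp in control. The main peak measured 3493 bp in crotonate and 4381 bp in control at Esrrb, 2514 bp in crotonate and 3110 bp in control at Klf2, and 2469 bp in crotonate and 2813 bp in control at Klf4. At Esrrb a weak gained peak with a pileup of 9 lay from 1185 to 1430 bases before the second start. All H3K27me3 peaks of the window covered 5150 bp in crotonate and 5087 bp in control at Esrrb. At Klf2 they covered 2514 bp in crotonate and 3110 bp in control, and at Klf4 3133 bp in crotonate and 4164 bp in control.

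H3K27ac heights did not run in 1 direction at the 3 genes. At Klf4 its pileup was 101 in crotonate and 76 in control, and the gene ranked 3104 in crotonate and 9033 in control among the 14437 genes with H3K27ac in both treatments. At Klf2 the pileup was 64 in crotonate and 85 in control, and its rank was 7342 in crotonate and 8088 in control. At the second Esrrb start the pileup was 36 in crotonate and 54 in control. Esrrb, ranked by its strongest H3K27ac peak, which lay far from that start, stood at 9698 in crotonate and 10093 in control. Each of the 3 genes thus had a higher H3K27ac rank and a lower H3K27me3 rank in crotonate, with the widest H3K27ac rank shift at Klf4. The higher H3K27ac rank was not particular to them. Nanog ranked 11003 in crotonate and 13083 in control, and Lin28a 4477 in crotonate and 7007 in control. Utf1 went the other way, with 14303 in crotonate and 13083 in control. The ranked peaks of Lin28a and Utf1 lay at neighbouring genes. The start of the long noncoding RNA gene Gm12506 lies next to that of Klf4, so their peaks cannot be told apart.

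Esrrb is the longest of the 10 genes, with a body of 160512 bp, and held more distal sites than the rest. The summit of its strongest H3K27ac peak lay in the gene body, 76984 bases after the second start in crotonate and 77006 bases after it in control, with a pileup of 47 in crotonate and 69 in control. H3K9cr was found on it with a pileup of 18 in crotonate and 28 in control. A site nearer to that start, with its summit 11995 bases after it in crotonate and 11972 in control, had H3K9cr in both treatments, with pileups of 25 in crotonate and 41 in control, but H3K27ac in control only, with a pileup of 22. In all, 3 weak H3K27ac peaks in the gene body were gained and 2 lost. No peak touched the first annotated start.

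**Figure D4:**
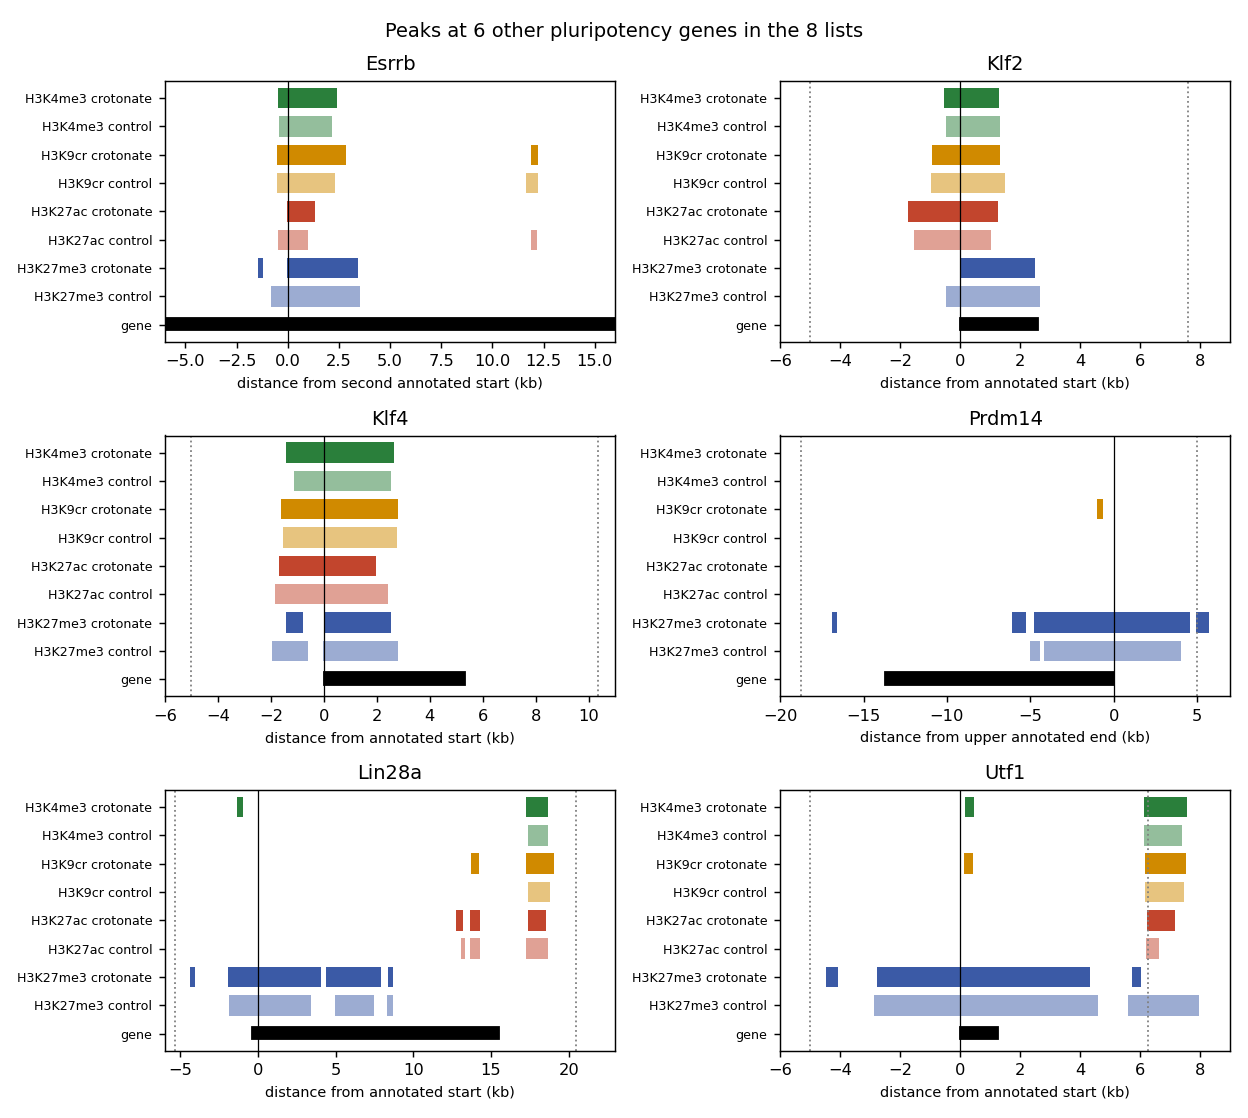
Bars are peaks of the 8 lists at 6 genes by distance in kb from an annotated start, or from the upper annotated end for Prdm14, drawn crotonate above control for each mark, with the gene in black and window edges dotted. At Esrrb, Klf2 and Klf4 the active marks and H3K27me3 overlap at the start or, for Klf4 in crotonate, on either side of it. A wide H3K27me3 domain lies over the start at Lin28a and Utf1 and over the upper end at Prdm14.

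Prdm14 encodes a PR-domain factor of naive stem cells and primordial germ cells, and Dppa3 a maternal and germ cell protein that protects DNA methylation patterns after fertilisation. Prdm14 had the strongest H3K27me3 peak of the set, 9342 bp wide with a pileup of 508 in crotonate and 8200 bp wide with a pileup of 747 in control (chr1:13122393-13131734 in crotonate), over the upper end of the gene. It ranked 156 in crotonate and 189 in control of the 6553 genes. A gained H3K27me3 peak of 847 bp with a pileup of 18 lay in the gene body, 230 bp from a control peak of 595 bp at the edge of the domain. Inside the domain, a H3K9cr peak of 373 bp with a pileup of 17 was found in crotonate only, with no H3K4me3 or H3K27ac on it. Genes with the same presence in the 8 lists numbered 44, and the nearest in peak strength were Cldn7, Barhl1 and Hoxd10.

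Dppa3 lies on the same chromosome as Nanog, and its only peak was a gained H3K27me3 peak of 265 bp in the gene body with a pileup of 10, at percentile 9.25 of the crotonate list. The nearest control H3K27me3 peak lay 62481 bp from the gene. With only as many crotonate as control peaks kept, the strongest ones, this peak dropped out. The pattern, H3K27me3 in crotonate and nothing else, was shared by 329 genes. Of the others, 19 had a peak of equal q-value, among them Aox3, Il23r and Apoc4.

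Lin28a encodes an RNA-binding protein that blocks the maturation of let-7 microRNAs, and Utf1 a chromatin protein of undifferentiated stem cells. Both lay under wide H3K27me3 domains. At Utf1 the domain was 7104 bp wide with a pileup of 457 in crotonate and 7475 bp wide with a pileup of 707 in control, and its rank was 223 in crotonate and 204 in control. At Lin28a the main peak was 5971 bp wide with a pileup of 233 in crotonate and 5305 bp wide with a pileup of 289 in control, and its rank was 661 in crotonate and 919 in control. A second Lin28a peak, inside the gene, was 3586 bp wide in crotonate and 2511 bp in control. The ranks of Prdm14, Lin28a and Utf1 were thus close or higher in crotonate, unlike those of the bivalent genes, but no test of that difference was possible.

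Peaks of active marks with low pileups were found in crotonate only at both genes. At Utf1 a H3K4me3 peak of 301 bp with a pileup of 13 lay from 153 to 453 bases after the start and overlapped a H3K9cr peak of 306 bp with a pileup of 15. The H3K4me3 peak stood at percentile 1.04 of its list by q-value, and it dropped out when both lists had equal numbers of peaks. At Lin28a a H3K4me3 peak of 370 bp with a pileup of 22 lay from 999 to 1368 bases before the start, and a H3K9cr peak of 497 bp with a pileup of 15 lay outside the H3K27me3 peaks, on a H3K27ac site in the gene body that was found in both treatments. The H3K4me3 peaks of Lin28a and Utf1 and the H3K9cr peak of Prdm14 all fell within H3K27me3 peaks of their crotonate list. The 2 H3K4me3 peaks are also the ones that put Lin28a and Utf1 among the genes marked at their start in crotonate but not in control. The Lin28a peak lies 1 base inside the limit of 1 kb.

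A second H3K27ac site in the Lin28a body was also found in both treatments, with a pileup of 14 in crotonate and 12 in control. The remaining active peaks counted for Lin28a and Utf1 lay at neighbours. At Lin28a they lay at the start of Dhdds, a gene of dolichol synthesis, where H3K4me3 had a pileup of 608 in crotonate and 665 in control. At Utf1 they lay at the start of the long noncoding RNA gene Gm16201, where the H3K4me3 pileup was 161 in crotonate and 107 in control. H3K27me3 at that start measured 280 bp with a pileup of 12 in crotonate and 2367 bp with a pileup of 43 in control, and in crotonate it did not overlap the H3K4me3 peak.

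**Figure D5:**
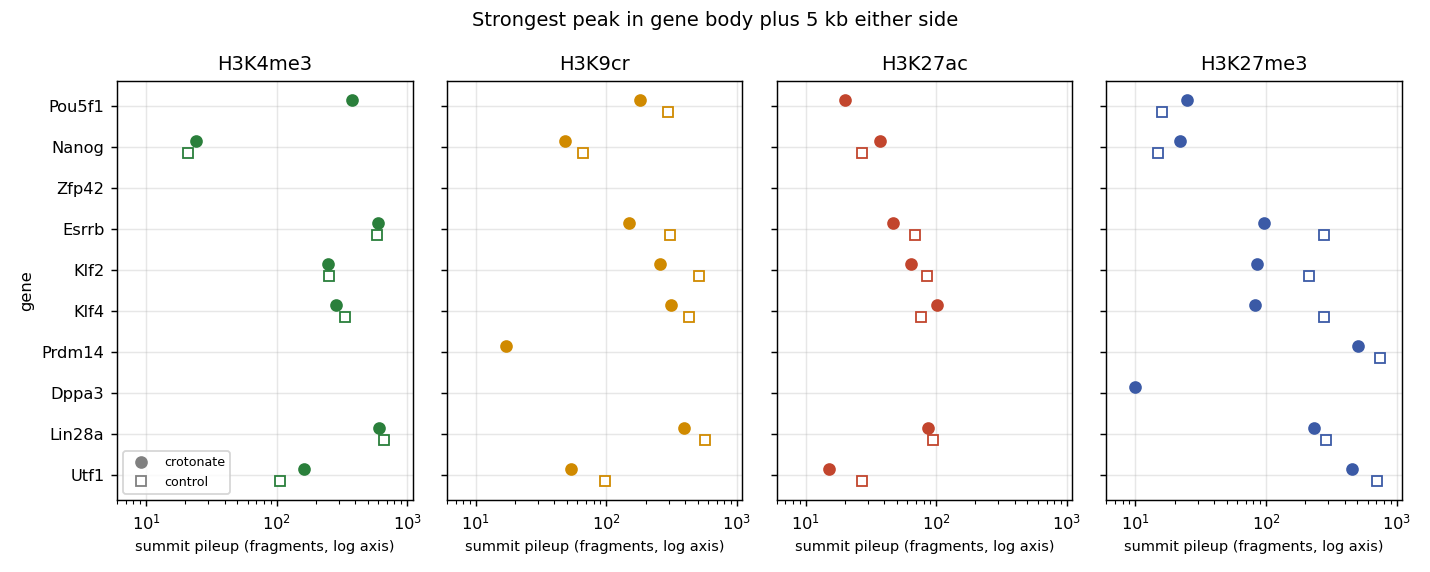
Points give the summit pileup of the strongest peak of each gene in its window on a log axis, filled circles for crotonate and open squares for control, with no point where there was no peak. H3K27me3 pileups are lower in crotonate at Esrrb, Klf2 and Klf4 (97, 86 and 83 in crotonate against 277, 214 and 276 in control). They are also lower at Prdm14, Lin28a and Utf1 (508, 233 and 457 in crotonate against 747, 289 and 707 in control). The H3K4me3, H3K9cr and H3K27ac points of Pou5f1, Lin28a and Utf1 all belong to peaks at neighbouring genes.

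Other regulators of naive pluripotency and the early embryo, a list of 30 genes from Sox2 to Mybl2, had H3K4me3 in 23 windows in crotonate (68.1% of all genes) and 22 in control (66.8%), and H3K9cr in 22 in crotonate (70.5%) and 21 in control (69.3%). H3K27ac touched 19 in crotonate (68.5% of all genes) and 17 in control (67.7%), and H3K27me3 17 in crotonate (34.7%) and 18 in control (33.8%). Of the 30 genes, 1 gained H3K4me3 (1.59% of all genes), 1 gained H3K9cr (1.83%), 2 gained H3K27ac (2.51%) and 1 lost H3K27me3 (3.84%). H3K4me3 was gained at Nr0b1, which encodes an orphan nuclear receptor, with a pileup of 19. H3K9cr was gained at Sall4, a zinc finger factor, with a pileup of 20 and a width of 1830 bp. H3K27ac was gained at Tbx3 and Tfcp2l1, transcription factors of the naive network, with pileups of 17 and 11. H3K27me3 was lost at Tet1, which encodes an enzyme of DNA demethylation, where the control peak had a pileup of 13. Overlapping H3K4me3 and H3K27me3 peaks were found at 9 of the 30 genes in crotonate, beside 17.5% of all genes, and 12 in control, beside 20.1%. Of the 30, 1 had the overlap in crotonate only, beside 1.62% of all genes, and 4 in control only, beside 4.17%.

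Of 8 genes of primed pluripotency, the state of the later epiblast, H3K4me3 marked 8 in crotonate (68.1% of all genes) and 7 in control (66.8%). The gain, a change seen at 1.59% of all genes, was at Foxd3, a forkhead factor, with a pileup of 13. H3K27me3 marked 6 in crotonate (34.7% of all genes) and 7 in control (33.8%). The loss, a change seen at 3.84% of all genes, was at Sox3, a factor that neural progenitors also use, with a pileup of 16 in control. H3K9cr marked 7 of the 8 genes in each treatment, beside 70.5% of all genes in crotonate and 69.3% in control, and H3K27ac 7 in each, beside 68.5% in crotonate and 67.7% in control. Overlapping H3K4me3 and H3K27me3 peaks were found at 6 of the 8 in crotonate, beside 17.5% of all genes, and 5 in control, beside 20.1%. Of the 8, 1 had the overlap in crotonate only (1.62% of all genes) and 0 in control only (4.17%).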

How the data were processed

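The study labels name 10 libraries of neural stem and progenitor cells. The 8 immunoprecipitated ones have a peak list each, and the 2 inputs were not analysed here. The submitters' processing notes name Bowtie2 2.4.1, MACS2 2.2.7.1 and GRCm38. How peaks were called, whether duplicates were removed and how the inputs entered was not given in the sources used here. By their headers, the authors' files hold for each peak the coverage signal at its summit (the deposited pileup); the deposited fold enrichment is its ratio to the local background, and the deposited -log10 p-value and -log10 q-value refer to the same summit. The weakest peak of each list had a q-value between 0.0363 and 0.05. Read depth is unknown, and intervals cover counting error only.

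Gene positions came from the RefSeq table of GRCm38.p6, and starts with strand from its promoter table, which holds 17492 of the 21887 protein-coding genes. Peaks were assigned with Python 3.11.15 and pandas 2.3.3 by 1 bp of overlap, and positions count from 1. The authors' peak values were used to describe and rank peaks within a list. State calls were tested on simulated lists. Each mark had 1 library per treatment, so no test was run and no p-value computed. The members and gene lists were chosen with earlier results of these data known, and ranks over genes with a mark in both treatments and the windows of 1 kb around starts were added after the data were seen. Named were all 10 genes, the genes of the other lists that gained or lost a mark in their window, and the 3 genes nearest to each gene with a changed pattern, by the Euclidean distance of log2(1 + -log10 q).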

Additional observations from a re-analysis of the deposited data

How the results depend on the processing

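No paired analysis was possible because each mark has 1 library per treatment, and for the same reason no library could be left out. Of 224 other values of counts, 161 stayed within 1.5 times the main one. Narrower windows lose the peaks of neighbours. With the gene body only, H3K4me3 touched 4 genes in crotonate and 3 in control, H3K9cr 3 in control, and H3K27ac 4 in crotonate; 3 genes gained H3K9cr, 2 H3K27me3 and 0 H3K27ac; peaks in crotonate only numbered 1 for H3K4me3, 3 for H3K27ac and 6 for H3K27me3, and 0 H3K27me3 peaks were in control only. With 1 kb flanks the counts that moved were the same save for 2 genes that gained H3K4me3 and the H3K4me3 counts of crotonate genes and peaks, which stayed within 1.5 times. With 10 kb flanks 0 genes gained H3K4me3, H3K9cr or H3K27ac. With summits inside the window 2 genes gained H3K9cr. Without peaks near another gene H3K4me3 and H3K9cr touched 3 genes each in control and H3K27ac 4 in crotonate, 2 genes gained H3K4me3, 3 H3K9cr and 0 H3K27ac, 3 H3K27ac peaks were in crotonate only, and H3K4me3 overlapped H3K27me3 at 3 genes in crotonate and 2 in control. At starts, a setting added after the data were seen, H3K4me3 touched 3 genes in control, H3K9cr 4 in crotonate and 3 in control, and H3K27ac 3 in each; 2 genes gained H3K4me3 and 0 H3K27ac; peaks in crotonate only numbered 1 for H3K9cr, 0 for H3K27ac and 2 for H3K27me3, and those in control only 0 for H3K27ac and H3K27me3.

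With the stronger 50% of each list H3K4me3 touched 3 genes in crotonate and 2 in control, overlap with H3K27me3 was left at 1 gene in each, 2 genes gained H3K27me3 and 1 lost H3K27ac, and peaks in crotonate only numbered 0 for H3K4me3, 1 for H3K9cr, 1 for H3K27ac and 3 for H3K27me3, with 1 H3K27ac peak in control only. With equal numbers of peaks 0 genes gained H3K27me3, and peaks in crotonate only numbered 3 for H3K27me3 and 1 for H3K4me3. When sharing asked for 50% of both peaks, 8 H3K27me3 and 5 H3K27ac peaks were in control only, and with peaks within 1 kb counted as shared 6 H3K27me3 peaks were in crotonate only.

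Of 280 differences in covered length, crotonate minus control, 13 changed sign: H3K27me3 at Esrrb, -183 bp with equal numbers and -390 bp with the stronger 50%, at Pou5f1 -558 bp without peaks near another gene, and at Utf1 334 bp with summits inside; H3K4me3 at Utf1, -7 bp with equal numbers, and at Klf2 -6 bp in the gene body; H3K27ac at Lin28a, 143 bp in the gene body, with 1 kb flanks and without peaks near another gene, at Utf1 516 bp with 10 kb flanks, and at Esrrb -72 bp with the stronger 50%; and H3K9cr with the stronger 50%, 677 bp at Nanog and -1 bp at Utf1. The cause was not tested. Read depth, which sets how weak a peak can be called, is unknown for all 8 lists.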

Other observations

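Of 11 germ line genes, H3K27me3 touched 3 in crotonate (34.7% of all genes) and 2 in control (33.8%), and H3K4me3 3 in crotonate (68.1%) and 3 in control (66.8%). H3K9cr touched 5 in crotonate (70.5% of all genes) and 4 in control (69.3%), and H3K27ac 5 in crotonate (68.5%) and 3 in control (67.7%). Of the 11, 1 gained H3K27me3 (4.75% of all genes), 1 gained H3K9cr (1.83%) and 2 gained H3K27ac (2.51%). Ddx4, an RNA helicase of germ cells, gained a H3K27me3 peak with a pileup of 11. Tfap2c, a transcription factor of primordial germ cells, gained a H3K9cr peak with a pileup of 13. Dnmt3l, which encodes a cofactor of DNA methylation, and Tex19.1 gained H3K27ac peaks with pileups of 13 and 10. None of these 11 genes lost a mark. Overlapping H3K4me3 and H3K27me3 peaks were found at 2 of them in each treatment, beside 17.5% of all genes in crotonate and 20.1% in control.

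The 14 relatives of the pluripotency genes, among them Klf3, Klf6, Lin28b and Pou3f2, all had H3K4me3, H3K9cr and H3K27ac in both treatments, marks that between 66.8% and 70.5% of all genes had. H3K27me3 touched 6 of them in crotonate, beside 34.7% of all genes, and 8 in control, beside 33.8%. It was lost at 2 of the 14, beside 3.84% of all genes: Klf9 and Klf12, which encode Krüppel-like factors. The Klf12 peak had a pileup of 15 in control. The Klf9 peak had a pileup of 46 and a width of 3046 bp in control and overlapped a crotonate peak that did not reach the window, so that its loss is again a moved edge. Overlapping H3K4me3 and H3K27me3 peaks were found at 4 of the 14 in crotonate, beside 17.5% of all genes, and 6 in control, beside 20.1%. Of the 14, 1 had the overlap in crotonate only (1.62% of all genes) and 3 in control only (4.17%).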
